A study of Mus musculus with 6 samples.

Results

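Transcripts of the respiratory chain were followed in immune cells of mouse liver, with those made in the mitochondrion kept apart from those made in the nucleus. The members were chosen by name: features starting with mt-Nd, mt-Co, mt-Atp or mt-Cytb, and features starting with Nduf, Uqcr, Cox4 to Cox8 or Atp5, with Sdha, Sdhb, Sdhc and Sdhd. This gave 107 of 32286 gene features, 13 on the mitochondrial genome (7 of complex I, 1 of complex III, 3 of complex IV and 2 of complex V) and 94 on nuclear chromosomes. Of the nuclear members, 39 were assigned to complex I, 4 to complex II, 8 to complex III, 18 to complex IV, 17 to complex V, and 8 were assembly factors of complex I (the Ndufaf genes). In all libraries 104 of the 107 had at least 1 transcript, and Cox7b2, Cox8b and Cox8c, isoform genes of complex IV, had none.

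The study profiled immune cells from tumor-bearing mouse livers by CITE-seq, droplet sequencing of single-cell mRNA beside antibody tags, to compare livers in which Baat, a bile acid conjugation enzyme of hepatocytes, was targeted with controls. There was 1 mRNA library per group, each a pool of 3 tumor samples collected at day 30: mock (mock infected), AAV-sgSCR (an adeno-associated virus with the SCR guide) and AAV-sgBaat (the same kind of virus with a guide to Baat). The mock sample is titled as native liver, while the design text speaks of tumor-bearing livers for every group, so its tumor state is uncertain, and strain, age and genotype are not in the labels used here. Livers were digested with collagenase and DNase, immune cells were enriched on Percoll, red cells were lysed, and CD45hi cells were sorted as a CD3+ fraction and a remainder before loading. Both AAV groups share the virus and a guide, so a difference between either of them and mock includes both.

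Most genes of oxidative phosphorylation lie in the nucleus, and their proteins are made in the cytosol and imported into mitochondria. A small set is transcribed from the mitochondrial genome as long polycistronic RNAs that are cut into separate messages. It holds core membrane subunits of complexes I, III and IV and a pair of ATP synthase subunits. Complexes I and II feed electrons from NADH and succinate into the chain, complex III passes them to cytochrome c, complex IV reduces oxygen, and complex V makes ATP from the proton gradient. T cells that divide after activation build more of this machinery, while neutrophils are known for few mitochondria and a reliance on glycolysis.

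Promoter sequences in RefSeq (build GRCm38.p6) from 250 bases before to 50 after the annotated start were matched for 75 of the 94 nuclear members. Among the 19 without an entry were Atp5a1, Atp5f1, Atp5mpl, Cox4i1, Cox4i2, Cox6a2, Cox6c, Cox8c, Ndufa2, Ndufa4l2, Ndufaf6, Ndufb1-ps, Ndufb9, Ndufs1, Sdhc, Uqcrb, Uqcrc2 and Uqcrq. The windows were searched on both strands for 3 motifs known from this gene family. Nuclear respiratory factor 1 was represented by GCATGCGC, the ETS factors that include GABP by CCGGAAGT, and YY1 by AAGATGGC. GCATGCGC was in the window of 12 of the 75 members (16%) and of 3.05% of all 27025 symbols with a window. AAGATGGC was in 10 members (13.3%) against 3.19% of all symbols, and CCGGAAGT in 5 members (6.67%) against 4.31%. No match overlapped a match of another motif. The sequences below are of members whose values carry the results: Cox6a1, which had the highest ratio between the AAV libraries in CD8 T cells among nuclear members with at least 200 UMIs there, and Atp5k, Atp5j, Atp5h, Ndufa3 and Uqcr11. Capitals mark the motif, on either strand, and each sequence runs 5′ to 3′ on the gene's strand. Where GCATGCGC and its reverse complement overlap, a run of 10 bases is in capitals.
Cox6a1, the 250 bases before the start, chr5:115348959-115349208, minus strand, with GCATGCGC: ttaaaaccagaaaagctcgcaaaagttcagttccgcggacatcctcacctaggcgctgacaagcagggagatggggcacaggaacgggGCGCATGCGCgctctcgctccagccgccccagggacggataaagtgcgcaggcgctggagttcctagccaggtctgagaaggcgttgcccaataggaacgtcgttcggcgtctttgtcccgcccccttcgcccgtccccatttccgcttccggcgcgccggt
Atp5k, chr5:108434430-108434459, minus strand, with GCATGCGC: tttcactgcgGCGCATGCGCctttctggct
Uqcr11, chr10:80406807-80406836, minus strand, with GCATGCGC: atcgccttcacGCATGCGCtatacgtctgc
Uqcr11, chr10:80406869-80406898, minus strand, with CCGGAAGT: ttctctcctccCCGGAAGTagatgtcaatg
Atp5h, chr11:115419940-115419969, minus strand, with CCGGAAGT read on the other strand: ccaaggagagaACTTCCGGcaactctcttc
Atp5j, chr16:84835046-84835075, minus strand, with AAGATGGC: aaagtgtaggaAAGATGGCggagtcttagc
Ndufa3, chr7:3617384-3617413, plus strand, with AAGATGGC: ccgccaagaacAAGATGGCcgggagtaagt
The match began 162 bases before the start in Cox6a1, 50 in Atp5k, 4 and 66 in Uqcr11, 39 in Atp5h and 88 in Atp5j, and 22 bases past the start in Ndufa3. A match is a match of letters and was not tested as a binding site.

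Barcodes with at least 500 genes and 1000 gene UMIs were used (a UMI is a tag that counts 1 captured transcript), which left 6214 of 6431 in mock, 7595 of 8073 in AAV-sgSCR and 7324 of 9386 in AAV-sgBaat. Their median depth was 4122, 5782 and 3708.5 gene UMIs. Barcodes were placed in gates by UMIs of lineage panels that hold no respiratory chain gene, 5705, 5812 and 4677 in all. Barcodes that passed panels of more than 1 lineage were left out as mixed, except for set combinations. These mixed barcodes were 6.73% of mock, 19.2% of AAV-sgSCR and 29.03% of AAV-sgBaat. Combinations kept included T with NK panels (as T cells) and B with plasma cell panels (as plasma cells). Precursor with neutrophil or monocyte panels were also kept (as granulocyte precursors). No doublet caller was run. Ptprc, which encodes the sorted CD45, had a UMI in 92.2%, 90.5% and 77.4% of barcodes. A gate is a range of panel counts and not a proven cell type. Barcodes exactly at the cut made up 1.36%, 1.25% and 4.64% of the CD8 T gate. They made up as much as 16.3% of another gate used here (AAV-sgBaat NK and ILC1 cells). In all 32 gate and library sums, markers of the gate's own panel outnumbered those of other panels among the 10 leading genes. The same panels defined the gates, so this outcome was nearly fixed in advance and is no check of cell type. Baat itself had 5, 15 and 1 UMIs in the mock, AAV-sgSCR and AAV-sgBaat libraries, and since it is a hepatocyte enzyme these counts say nothing about editing. Between 10 and 25 barcode sequences were shared by each pair of libraries.

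Values are the percent of gene UMIs for the mitochondrial part and UMIs per 1000000 gene UMIs (CPM) for single genes and for the nuclear part, from UMIs summed over the barcodes of a gate. No difference between conditions can be tested on 1 library each, so ratios are given as log2 values with exact 95% intervals that cover counting error only. RNA content per cell and the number of mitochondria per cell cannot be told apart in these shares.

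In the CD8 T gate, the AAV-sgBaat library had a lower mitochondrial and a higher nuclear part than AAV-sgSCR. The 13 mitochondrial transcripts made up 4.29% of gene UMIs in mock (589 barcodes), 4.58% in AAV-sgSCR (1916 barcodes) and 3.04% in AAV-sgBaat (797 barcodes). The log2 ratio of AAV-sgBaat over AAV-sgSCR was -0.59 (-0.60 to -0.58). The nuclear members summed to 16074 CPM in mock, 20358 in AAV-sgSCR and 22629 in AAV-sgBaat, a log2 ratio between the AAV libraries of 0.15 (0.14 to 0.16). Mitochondrial UMIs per nuclear UMI of the chain were 2.67 in mock, 2.25 in AAV-sgSCR and 1.34 in AAV-sgBaat. AAV-sgBaat thus stood apart from both other libraries in its mitochondrial part, while for the nuclear part mock was the lowest and AAV-sgSCR lay between.

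The lower mitochondrial part was seen across lineages, with neutrophils apart. Of 12 gates with at least 50 barcodes in both AAV libraries, 11 had a lower mitochondrial share in AAV-sgBaat, and in each of the 11 the interval of the log2 ratio lay below 0. In B cells the share was 5.16% in mock (2979 barcodes), 5.94% in AAV-sgSCR (762) and 3.58% in AAV-sgBaat (405), with a log2 ratio of -0.73 (-0.74 to -0.72) between the AAV libraries. Monocytes held 3.23% in mock (89 barcodes), 3.94% in AAV-sgSCR (586) and 2.43% in AAV-sgBaat (411), with a log2 ratio of -0.70 (-0.71 to -0.68). CD4 T cells, NK and ILC1 cells, immature T cells, granulocyte precursors and basophils and mast cells had log2 ratios of -0.73, -0.80, -0.84, -0.73 and -0.86. The smallest differences among the 11 were in T cells outside the CD4, CD8 and immature gates, at -0.33, and in macrophages, at -0.39.

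Neutrophils had the lowest mitochondrial share, and the sign of their difference between the AAV libraries depended on the setting. The share was 1.44% in AAV-sgSCR (917 barcodes) and 1.54% in AAV-sgBaat (600), and the log2 ratio of 0.090 (0.072 to 0.11) turned to -0.02 with barcodes of at most 10% mitochondrial UMIs, to -0.07 with at least 2000 UMIs and to -0.08 with gates taken from clusters. The median share per barcode was 0.779% in AAV-sgSCR and 0.780% in AAV-sgBaat. The upper end differed more: barcodes of 2 to 5% made up 12.4% of AAV-sgSCR and 21.2% of AAV-sgBaat neutrophils, and those of 5% or more 4.47% and 9.17%. Within neutrophils of 1000 to 2000 UMIs the share was 1.88% in AAV-sgSCR and 2.93% in AAV-sgBaat, and within those of 8000 or more it was 1.61% and 1.15%, so the order turned with depth.

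The nuclear part had a narrower range of differences. It was higher in AAV-sgBaat in 11 of the 12 gates, in 10 with the interval above 0. The log2 ratio was 0.27 in other T cells, 0.21 in neutrophils and 0.20 (0.18 to 0.22) in B cells. The neutrophil value varied with depth. It was 0.91 in barcodes of 1000 to 2000 UMIs (65 in AAV-sgSCR, 190 in AAV-sgBaat) and 0.12, 0.10 and 0.18 in the deeper bins. In monocytes it was 0.11, in pDC 0.07, and in basophils and mast cells -0.01 (-0.04 to 0.02). Shares of a total move against each other, and with the 13 mitochondrial transcripts taken out of the total the nuclear part was higher in 10 of the 12 gates.

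Between lineages the levels ranged more widely than between libraries. Immature T cells had the highest nuclear sum, 29473 CPM in AAV-sgSCR (115 barcodes) and 32478 in AAV-sgBaat (986 barcodes), and 66.1% and 74.1% of them passed the cycling panel. Plasmacytoid dendritic cells (pDC) had 21314, 26885 and 28207 CPM in mock, AAV-sgSCR and AAV-sgBaat, and granulocyte precursors 26440 and 27941 in the AAV libraries. Neutrophils were lowest, at 10188 CPM in AAV-sgSCR and 11746 in AAV-sgBaat. Of 86 nuclear members with at least 200 UMIs in some gate and library, 52 had their highest gate mean in immature T cells, 14 in granulocyte precursors, and 77 had their lowest in neutrophils. Each of the 13 mitochondrial transcripts was lowest in neutrophils as well, and the highest gate mean was between 2.84-fold (mt-Co1) and 5.09-fold (mt-Nd4l) the lowest. Gate means are over the libraries that held the gate. Mock was below both AAV libraries in the nuclear part in 7 of 7 gates. It had too few barcodes for the immature T, granulocyte precursor, basophil and mast cell, macrophage and neutrophil gates, so nuclear means with and without mock are not alike.

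**Figure D1:**
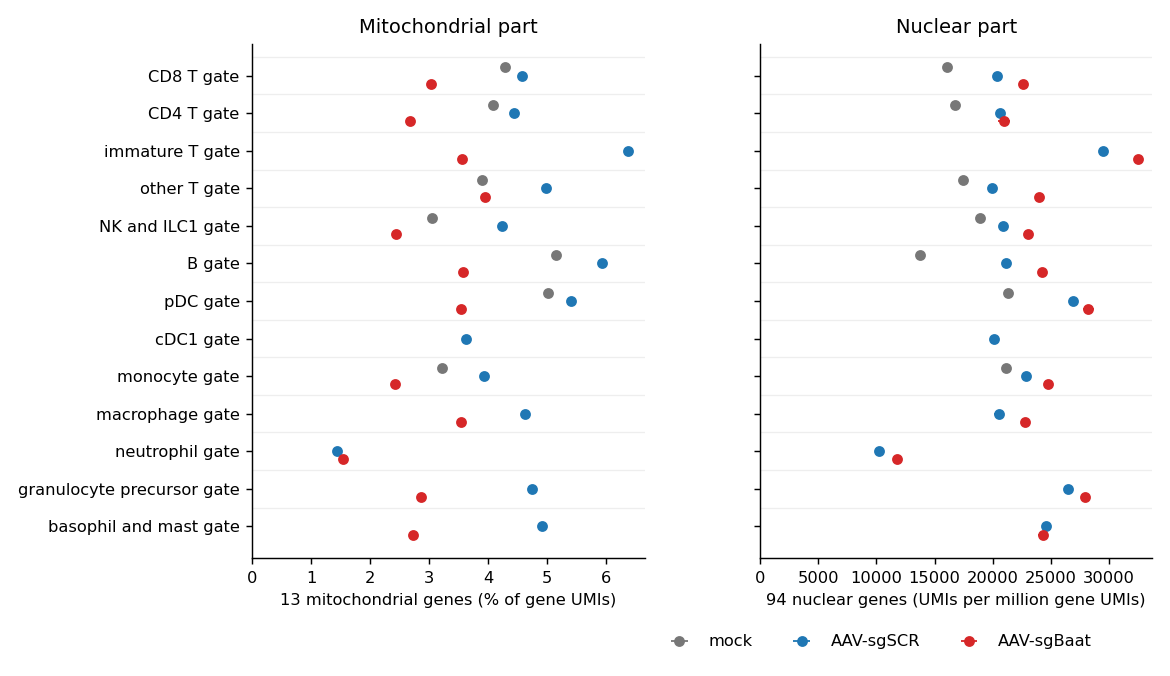
The left panel plots the 13 mitochondrial transcripts as percent of gene UMIs and the right panel the nuclear members as CPM, for 13 gates (vertical axis), 1 point per library. In the left panel AAV-sgBaat lies left of AAV-sgSCR in each gate with both except neutrophils (1.44% and 1.54%), and in the right panel neutrophils lie lowest, at 10188 and 11746 CPM.

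Against mock, the AAV libraries differed in both parts. Comparisons with mock share that library, and those of AAV-sgSCR with mock share AAV-sgSCR with the results above, so each is given as its own values. AAV-sgSCR was above mock in both parts in 7 of 7 gates with enough barcodes. In CD8 T cells the log2 ratio was 0.10 for the mitochondrial and 0.34 for the nuclear part, and in B cells 0.20 and 0.62. AAV-sgBaat was below mock in the mitochondrial part in 6 of 7 gates, with -0.50 in CD8 T cells, and other T cells were the exception at 0.02. Its nuclear part was above mock in 7 of 7 gates, by a log2 ratio of 0.49 in CD8 T cells, 0.82 in B cells and 0.23 in monocytes. The B gate did not hold like cells in each library. Its 10 leading genes included Ighd and Fcer2a, genes of mature B cells, in mock only. In both AAV libraries they included Vpreb1, Vpreb3 and Igll1, genes of B precursors. B cell values against mock include this difference.

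Other measures moved with these groups. Cycling barcodes made up 5.09%, 11.01% and 18.2% of CD8 T cells and 0.537%, 13.3% and 16.3% of B cells in mock, AAV-sgSCR and AAV-sgBaat. Without cycling barcodes the ratios of AAV-sgBaat over AAV-sgSCR in CD8 T cells were -0.63 for the mitochondrial and 0.11 for the nuclear part, and in B cells -0.69 and 0.10, so the nuclear difference in B cells was smaller without them. CD8 T cells of the AAV-sgBaat library were shallower, with a median of 3621 gene UMIs against 4977.5 in AAV-sgSCR and 5776 in mock. Within bins of like depth the mitochondrial part was lower and the nuclear part higher in AAV-sgBaat in 15 of 15 bins of 5 gates (CD8 T, immature T, NK and ILC1, B, monocyte). Neutrophil bins are not in this count. Their mitochondrial log2 ratio was 0.64, 0.25, 0.05 and -0.49 from the shallowest to the deepest bin. In CD8 T cells of 2000 to 4000 UMIs the mitochondrial share was 4.62% in AAV-sgSCR and 2.98% in AAV-sgBaat. The share was highest in the shallowest CD8 T cells, 7.71% and 4.97%.

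**Figure D2:**
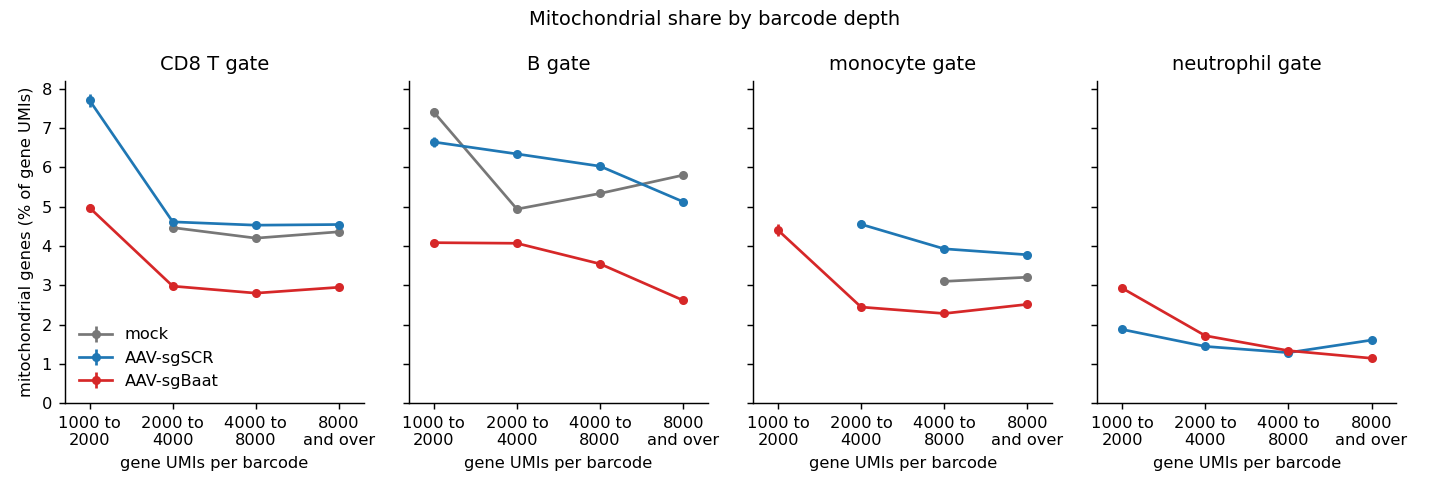
Mitochondrial percent of gene UMIs (vertical axis) in bins of gene UMIs per barcode (horizontal axis) for the CD8 T, B, monocyte and neutrophil gates, 1 line per library; bins with under 20 barcodes are not drawn. In CD8 T cells AAV-sgBaat lies below AAV-sgSCR in each bin (for example 2.98% against 4.62% at 2000 to 4000 UMIs), while in neutrophils the order turns from 2.93% against 1.88% to 1.15% against 1.61%.

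RNA of other cells and RNA quality also differed between libraries. In CD8 T cells 5, 10 and 8 of 11 hepatocyte markers were detected in mock, AAV-sgSCR and AAV-sgBaat, summing to 6.91, 26.7 and 20.1 CPM. Erythroid markers summed to 24.2, 635 and 257 CPM in the same gate, and the neutrophil panel to 2.92, 408 and 292 CPM. In B cells the erythroid sum was 468, 582 and 97.2 CPM and the neutrophil panel 6.86, 397 and 144, and in monocytes the erythroid sum was 3483, 1422 and 7.75. The nuclear-retained RNA Malat1 had 18019, 15394 and 12904 CPM in CD8 T cells, and the stress-induced Hspa1a and Hspa1b had log2 ratios of AAV-sgBaat over AAV-sgSCR of 3.79 and 3.69. Barcodes of over 10% mitochondrial UMIs were 2.35%, 3.46% and 3.14% of all, but 22.6% of immature T cells in AAV-sgSCR against 3.85% in AAV-sgBaat. The part of these measures in the differences was not tested. With barcodes of at most 10% mitochondrial UMIs, the CD8 T ratio was -0.66.

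The libraries also held T cells of both CD90 alleles, read from antibody features. CD8 T cells with more CD90.1 than CD90.2 tag had a mitochondrial log2 ratio of AAV-sgBaat over AAV-sgSCR of -0.40 and a nuclear ratio of 0.22 (1152 and 380 barcodes in AAV-sgSCR and AAV-sgBaat). Those with more CD90.2 had -0.78 and 0.15 (739 and 384 barcodes). The direction was the same in both, and the mitochondrial difference was larger in the CD90.2 barcodes. Which cells carried which allele is not in the labels used here, and the third antibody feature of the matrices is F4/80 where the labels name a hashtag.

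The mitochondrial transcripts did not all differ by the same amount. Of the 13, all were lower in AAV-sgBaat than in AAV-sgSCR CD8 T cells, 6 of them by more than 1.5-fold and none higher by that much; of all 11178 genes with at least 20 UMIs over both libraries, 12.9% were lower and 8.22% higher past 1.5-fold. The 6 were mt-Co1, mt-Co3, mt-Atp6, mt-Atp8, mt-Nd3 and mt-Nd5. Against mock, 7 of the 13 were lower past 1.5-fold in AAV-sgBaat (13.3% of all genes lower, 18.4% higher). AAV-sgSCR against mock had 0 of 13 past 1.5-fold, where 22.8% of all genes were higher and 10.8% lower. By any amount 6 of the 13 were higher, and the share of all genes higher by any amount is not given for this comparison. No test stands behind these counts, since each group is 1 library.

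Among the complex I transcripts, mt-Nd1, which helps form the quinone site, had 2117 CPM in mock, 2148 in AAV-sgSCR and 1694 in AAV-sgBaat CD8 T cells, a log2 ratio between the AAV libraries of -0.34 (-0.39 to -0.30). Mock and AAV-sgSCR were close, and AAV-sgBaat was lower. The proton-pumping subunits mt-Nd2, mt-Nd4 and mt-Nd5 had log2 ratios of -0.53, -0.55 and -0.71, from 2349 to 1624, 1977 to 1351 and 522 to 318 CPM. For mt-Nd3, a small membrane subunit, the level was 502, 389 and 204 CPM in mock, AAV-sgSCR and AAV-sgBaat, a log2 ratio of -0.93 (-1.05 to -0.81). It was thus highest in mock and lowest in AAV-sgBaat. The least abundant transcript, mt-Nd6, the only one of the 13 encoded on the other strand of the mitochondrial genome, had 428 UMIs in AAV-sgSCR and 90 in AAV-sgBaat, at 39.6 and 27.9 CPM, and the wide interval of its log2 ratio of -0.51 ran from -0.85 to -0.18; in CD90.1 barcodes alone the ratio was 0.03. For mt-Nd4l, which shares 7 bases with mt-Nd4, the ratio was -0.56.

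The single complex III transcript, mt-Cytb, which encodes cytochrome b, had the smallest difference of the 13. Its level was 3682 CPM in mock, 3457 in AAV-sgSCR and 3024 in AAV-sgBaat, a log2 ratio of -0.19 (-0.23 to -0.16). As a share of mitochondrial UMIs it was therefore highest in AAV-sgBaat, 9.94%, against 7.54% in AAV-sgSCR and 8.58% in mock. In complex IV, the catalytic subunits mt-Co1 and mt-Co2 had 7559 and 7185 CPM in AAV-sgSCR and 4624 and 5086 in AAV-sgBaat, log2 ratios of -0.71 (-0.73 to -0.68) and -0.50. Mock lay near AAV-sgSCR for mt-Co2, at 6578 CPM. The ATP synthase transcript mt-Atp6, part of the proton channel, had 8702 CPM in mock, 10049.8 in AAV-sgSCR and 5929 in AAV-sgBaat, a log2 ratio of -0.76. The largest difference was in mt-Atp8, 163, 169 and 77.7 CPM, with a log2 ratio of -1.12 (-1.32 to -0.93) from 1829 and 251 UMIs. RefSeq has mt-Atp8 and mt-Atp6 overlap by 43 bases and mt-Nd5 and mt-Nd6 by 14, and reads in such overlaps may be split between the pair.

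**Figure D3:**
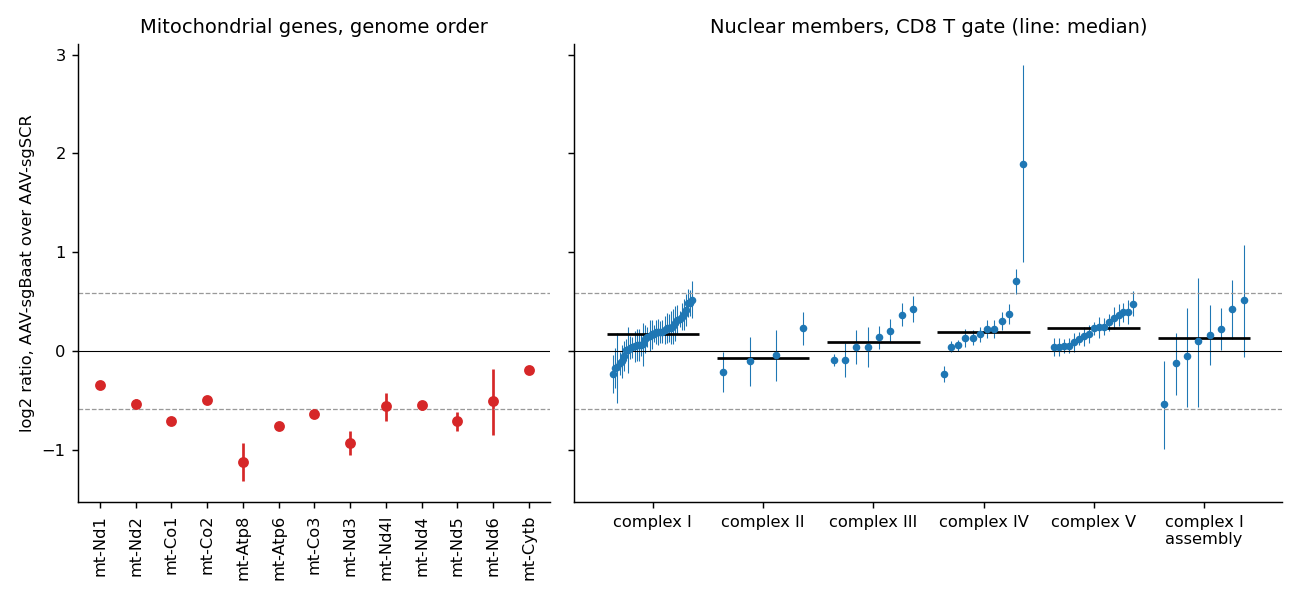
Log2 ratio of AAV-sgBaat over AAV-sgSCR in CD8 T cells (vertical axis) with exact 95% intervals, for the 13 mitochondrial transcripts in genome order (left) and the nuclear members by complex with median lines (right); dashed lines mark 1.5-fold. Each mitochondrial point is below 0, from -1.12 (mt-Atp8) to -0.19 (mt-Cytb), and 72 of the 87 nuclear points are above 0.

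The same transcripts tended to lie at the ends of the order from gate to gate. Over the 12 gates, mt-Nd3 was among the 3 lowest ratios in 10 and mt-Atp8 in 8, with median log2 ratios of -0.96 and -0.90. Cytochrome b was among the 3 highest in 11 of the 12 and mt-Nd1 in 10, with medians of -0.37 and -0.49. Gates of a library share the same free RNA and preparation, so they are not independent replicates of this order. In B cells mt-Atp8 had 194, 215 and 91.7 CPM in mock, AAV-sgSCR and AAV-sgBaat (log2 ratio -1.23 between the AAV libraries), mt-Nd3 596, 456 and 230 (-0.99), and mt-Cytb 4422, 4632 and 3669 (-0.34). B cells had 11 of 13 lower past 1.5-fold, all but mt-Nd1 and mt-Cytb, beside 12.7% of all genes lower and 5.68% higher. Against mock, 8 of the 13 were lower in AAV-sgBaat B cells, where 25.7% of all genes were lower and 24.2% higher past 1.5-fold. In monocytes mt-Nd3 had 343, 299 and 159 CPM (-0.92) and mt-Cytb 2137, 2632 and 1940 (-0.44), and 10 of 13 were lower past 1.5-fold beside 10.3% of all genes lower and 5.6% higher.

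Neutrophil transcripts lay on both sides of 0. Of the 13, 10 were above their AAV-sgSCR level in AAV-sgBaat, 2 of them past 1.5-fold, where 12.9% of all genes were higher and 14.5% lower. These were mt-Nd1, at 488 and 768 CPM in AAV-sgSCR and AAV-sgBaat (log2 ratio 0.65, 0.57 to 0.74), and mt-Nd6, at 9.73 and 20.3 CPM from 50 UMIs in each (1.06, 0.47 to 1.66). Cytochrome b had 1013 and 1417 CPM (0.48). On the other side, mt-Co1 was lower, 3197 and 2809 CPM (-0.19), and mt-Atp8 had 48.4 and 40.2 CPM (-0.27, -0.62 to 0.07). The transcripts mt-Co1, mt-Atp8 and mt-Nd5 were lower in AAV-sgBaat in 12 of 12 gates, neutrophils included. Erythroid markers summed to 1902 CPM in AAV-sgSCR neutrophils and 29.6 in AAV-sgBaat neutrophils, and their part in these values was not tested.

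**Figure D4:**
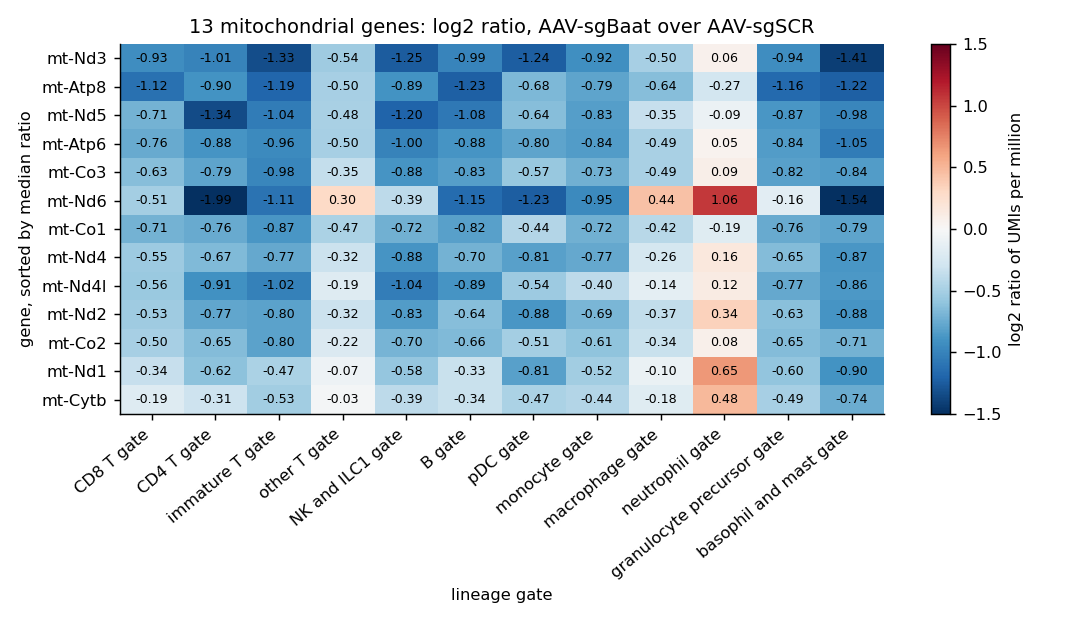
Log2 ratio of AAV-sgBaat over AAV-sgSCR (color and printed value) for the 13 mitochondrial transcripts (rows) in the 12 gates (columns). The mt-Nd3 and mt-Atp8 rows have the lowest medians, -0.96 and -0.90, and the mt-Cytb and mt-Nd1 rows the highest; the lowest single value is -1.99 (mt-Nd6 in CD4 T cells, 4 UMIs in AAV-sgBaat), and the neutrophil column holds 10 values above 0.

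Nuclear members differed by small amounts, mostly upward. In CD8 T cells 87 of the 94 had at least 20 UMIs over both AAV libraries; Cox4i2, Cox6a2, Cox7a1, Cox7b2, Cox8b, Cox8c and Ndufa4l2 did not. AAV-sgBaat was the higher library for 72 of the 87, and the median log2 ratio was 0.17, beside 44.4% of all genes higher and a median of -0.05. Past 1.5-fold there were 2, both higher (Cox6a1 and Cox6b2), a share below that of all genes (8.22% higher). Against mock the median was 0.54 in AAV-sgBaat, with 82 of 87 higher and 34 past 1.5-fold (18.4% of all genes higher past it), and 0.36 in AAV-sgSCR, with 80 of 87 higher and 19 past 1.5-fold, a share near that of all genes (22.8%). The medians over all genes in those comparisons were 0.05 and 0.12. No nuclear member was lower past 1.5-fold in any of these 3 comparisons.

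Complex V had every measured member higher and complex II did not. Between the AAV libraries, 17 of 17 ATP synthase members were higher in AAV-sgBaat CD8 T cells, with a median of 0.23, 32 of 38 in complex I with a median of 0.17, 11 of 12 in complex IV with 0.20, 6 of 8 in complex III with 0.09, and 5 of 8 complex I assembly factors with 0.14. In complex II, where succinate is oxidized, 1 of 4 was higher, with a median of -0.07. The summed levels were 5079, 6387 and 7269 CPM for complex V in mock, AAV-sgSCR and AAV-sgBaat and 212, 301 and 302 CPM for complex II, so complex II was at nearly the same level in both AAV libraries. B cells also had 17 of 17 of complex V higher, monocytes 14 of 17 and neutrophils 15 of 17. Complex II had 3 of 4 higher in B cells and 2 of 4 in monocytes. The share of all genes higher by any amount in these gates is not given beside these counts.

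Among complex I subunits of CD8 T cells, the accessory subunits Ndufb6, Ndufa3 and Ndufab1, the last of which is also the mitochondrial acyl carrier protein, had the highest ratios. Ndufb6 had 55.2 CPM in mock, 72.1 in AAV-sgSCR and 103 in AAV-sgBaat, a log2 ratio between the AAV libraries of 0.52 (0.33 to 0.71). Ndufa3 had 144, 145 and 204 CPM (0.49, 0.36 to 0.62), alike in mock and AAV-sgSCR. Ndufab1 had 95.4, 131 and 184 CPM (0.49, 0.35 to 0.63), a step at each library. Core subunits of the electron-carrying arm lay at the other end. Ndufs3 and Ndufs1 had ratios of -0.17 (-0.37 to 0.03) and -0.16 (-0.52 to 0.18), both intervals spanned 0, and the sign turned in CD90.2 barcodes for Ndufs3 (0.04) and with doubled panel thresholds for Ndufs1 (0.12). Of the assembly factors, Ndufaf4 had 41.2, 31.1 and 41.8 CPM (0.43, 0.13 to 0.72), so AAV-sgBaat was level with mock, and Ndufaf7, a mitochondrial methyltransferase, had 15.4, 23.8 and 16.4 CPM (-0.54, -0.99 to -0.10).

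The complex II genes lay on both sides of 0. Sdhb, the iron-sulfur subunit, had 69.3, 104 and 122 CPM in mock, AAV-sgSCR and AAV-sgBaat CD8 T cells (0.23, 0.06 to 0.40). Sdha, the flavoprotein that holds the succinate site, had 78.1, 89.1 and 77.1 CPM (-0.21, -0.42 to -0.01). The membrane anchors Sdhc and Sdhd had log2 ratios of -0.04 and -0.10, from 50.3 to 48.9 and from 58.1 to 54.2 CPM, and both were above mock in each AAV library, where they had 28.2 and 36.1 CPM. Sdha was lower in AAV-sgBaat in 6 of the 8 gates where it had at least 200 UMIs over both libraries. In complex III, Uqcr11 had the highest ratio, 0.43, with 130 CPM in mock, 147 in AAV-sgSCR and 197 in AAV-sgBaat. Uqcrq, another small subunit, had 175, 205 and 265 CPM (0.37), while the hinge protein Uqcrh had 743, 913 and 856 (-0.09). Small subunits of the same complex therefore lay on both sides of 0.

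In complex IV, Cox6a1, the isoform of subunit 6a found in most tissues, had the highest ratio of all nuclear members with at least 200 UMIs. Its level in CD8 T cells was 177 CPM in mock, 151 in AAV-sgSCR and 247 in AAV-sgBaat, a log2 ratio of 0.71 (0.58 to 0.83). AAV-sgSCR was thus the lowest of the 3, with a log2 ratio against mock of -0.22. The AAV-sgBaat value was the higher of the AAV libraries in 11 of 12 gates, with a median of 0.40. B cells had 156, 196 and 268 CPM, monocytes 208, 226 and 289, and NK and ILC1 cells 224, 186 and 257. CD4 T cells were the exception, at 201, 204 and 191 CPM. Cox6b1, which bridges the monomers of complex IV, had 308, 372 and 407 CPM (0.13) in CD8 T cells and was higher in 12 of 12 gates. Its testis isoform Cox6b2 had 7, 18 and 20 UMIs, at 1.86, 1.67 and 6.19 CPM (1.89, 0.90 to 2.90). Immature T cells had 26.0 and 36.8 CPM of Cox6b2 in AAV-sgSCR and AAV-sgBaat, and the part of free RNA from such cells in the CD8 T counts was not tested.

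Other isoform pairs were read mostly from their main form. Cox4i1 had 657, 920 and 949 CPM in mock, AAV-sgSCR and AAV-sgBaat CD8 T cells (0.04 between the AAV libraries), while Cox4i2, its hypoxia-responsive form, had 0, 0 and 2 UMIs. Cox8a had 651, 916 and 952 CPM (0.06), with Cox8b and Cox8c at 0. Cox7a2 had 235, 263 and 340 CPM (0.37), and the muscle form Cox7a1 had 3, 10 and 7 UMIs. Cox7a2l, a related protein that joins complexes III and IV into supercomplexes, went the other way, with 491, 521 and 444 CPM (-0.23, -0.32 to -0.15). It was lower in AAV-sgBaat in 10 of 12 gates, with a median of -0.11, and B cells had 372, 586 and 483 CPM. Cox7b had 257, 311 and 383 CPM (0.30), and Ndufa4, known as a complex IV subunit but counted here under complex I by its name, had 351, 410 and 513 (0.32), while its paralog Ndufa4l2 had 0, 2 and 2 UMIs in the whole libraries.

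For ATP synthase, the c-ring is made from 3 genes that encode the same mature peptide. Atp5g1 had 185, 289 and 379 CPM in mock, AAV-sgSCR and AAV-sgBaat CD8 T cells (0.39 between the AAV libraries). Atp5g2 had 437, 597 and 619 (0.05) and Atp5g3 184, 263 and 310 (0.24), so the 3 differed in size but all had mock lowest. Atp5md, a small membrane subunit, had 152, 161 and 224 CPM (0.48, 0.35 to 0.60). Atp5k, Atp5j and Atp5h, subunits of the membrane part and the stalk, had ratios of 0.36, 0.25 and 0.23 and were each higher in AAV-sgBaat in 12 of 12 gates, as was Ndufa3 of complex I. The largest differences of AAV-sgBaat from mock were in Ndufc2 (83.9 to 173 CPM, 1.04), Atp5g1 (1.03) and Ndufb8 (103 to 205 CPM, 0.99), and the lowest in Cox7a2l (-0.14), Ndufa6 (-0.09) and Ndufa1 (-0.03). AAV-sgSCR over mock was highest for Ndufa12 (77.6 to 147 CPM, 0.92), Sdhc (0.84) and Atp5f1 (217 to 385 CPM, 0.83), and lowest for Ndufaf4 (-0.40), Atp5mpl (-0.25) and Cox6a1.

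The ratios were also read by promoter motif. Nuclear members with GCATGCGC had a median CD8 T ratio of 0.19 with 11 of 12 higher, and matched members without it 0.18 with 50 of 60 higher. For AAGATGGC the medians were 0.24 with the motif, 10 of 10 higher, and 0.17 without. For CCGGAAGT they were 0.06 with the motif, 3 of 5 higher, and 0.18 without. These are descriptions of windows of 300 bases, and letters outside them were not searched.

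In B cells the nuclear members again leaned upward in AAV-sgBaat against AAV-sgSCR, 75 of 88 with a median of 0.22, with Ndufaf5 higher and Ndufaf7 lower past 1.5-fold, from 16 and 18 UMIs in AAV-sgBaat. Against mock 82 of 87 were higher in AAV-sgBaat and 68 past 1.5-fold, beside 24.2% of all genes. As above, the leading genes of the B gate included those of mature cells in mock and those of precursors in AAV-sgBaat. The part of this in the counts was not tested. Monocytes had 66 of 88 higher with a median of 0.12. Past 1.5-fold were Cox6a2, which rests on 13 UMIs in AAV-sgSCR and 11 in AAV-sgBaat, higher, and Ndufaf1, Ndufaf5 and Ndufaf7 lower, a smaller share than that of all genes (10.3% lower). Ndufaf1 and Ndufaf5 rest on 7 and 5 UMIs in AAV-sgBaat, while Ndufaf7 had 46.5 CPM in AAV-sgSCR and 28.4 in AAV-sgBaat (-0.71). Neutrophils had 73 of 85 higher with a median of 0.23 and 8 past 1.5-fold, a share near that of all genes (12.9%). Among them were Ndufab1, at 26.7 and 52.4 CPM in AAV-sgSCR and AAV-sgBaat (0.97), and Ndufc1, at 47.7 and 79.1 (0.73).

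The highest and lowest nuclear ratios of the other gates, among members with at least 200 UMIs over both AAV libraries, were partly shared. Ndufa3 was among the highest in B cells (148 to 203 CPM, 0.46), monocytes (164 to 234, 0.51) and pDC (157 to 258, 0.72). In other T cells Ndufab1 (0.93) and Uqcr11 (0.87) were highest and Ndufaf8 (-0.52) and Cox7a2l (-0.37) lowest. NK and ILC1 cells had Ndufc1 (0.76) and Ndufa5 (0.64) at the top and Cox7a2l (-0.16) and Ndufa12 (-0.14) at the bottom. Immature T cells had Cox6b2 (0.50) and Cox6a1 (0.44) at the top and Sdha (-0.30) and Ndufaf4 (-0.23) at the bottom. CD4 T cells, with 88 barcodes in AAV-sgBaat, had Atp5mpl (0.72) and Ndufb1-ps (0.48), and Uqcr10 (-0.36) and Atp5g3 (-0.34). Macrophages had Ndufb10 (0.53) and Atp5g1 (0.47), and Cox7a2l (-0.24) and Atp5b (-0.23). Granulocyte precursors had Atp5md (0.48) and Atp5k (0.37), and Ndufs3 (-0.31) and Ndufaf8 (-0.30), and basophils and mast cells Ndufs5 (0.66) and Ndufa13 (0.44), and Ndufa8 (-0.63) and Atp5a1 (-0.58). The remaining extremes were lower: Ndufaf3 in B cells (-0.18), Sdhd in monocytes (-0.42), neutrophils (-0.29) and pDC (-0.82), and Ndufa10 in pDC (-0.70). The supercomplex protein Cox7a2l was thus a low extreme in CD8 T, other T, NK and ILC1, B, macrophage and neutrophil gates, where it had -0.12 in neutrophils.

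The member that differed most between lineages was Cox6a2, the isoform of subunit 6a known from heart and skeletal muscle, at chr7:128205435-128206366 (mm10; Cox6a1 lies at chr5:115345652-115348958). In pDC it had 1297 CPM in mock, 773 in AAV-sgSCR and 1722 in AAV-sgBaat, from 2067, 1400 and 814 UMIs, and the gates outside pDC together had 1.87, 3.43 and 3.51 CPM. The log2 ratio of pDC over the other gates was 9.43, 7.82 and 8.94 in mock, AAV-sgSCR and AAV-sgBaat. Although it was not in the pDC panel, Cox6a2 was among the 10 leading genes of the pDC gate in all 3 libraries. A UMI of it was found in 85.7%, 80.6% and 89.9% of pDC barcodes and in 0.679%, 0.261% and 0.753% of CD8 T barcodes, taken as background. The median depths were 8437, 7053 and 4995 gene UMIs in pDC and, as above, 5776, 4977.5 and 3621 in CD8 T cells. B cells had it in 0.302%, 3.54% and 3.70% of barcodes. Macrophages had 0 UMIs, so with 3 counts per library as the floor the pDC level was at least 126-fold higher in AAV-sgSCR and at least 414-fold higher in AAV-sgBaat.

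The level of Cox6a2 in pDC was lowest in AAV-sgSCR, and its pDC gate was not uniform. There 49 cycling barcodes had 400 CPM and the 106 others 1414 CPM. Barcodes outside the cycling panel had 1309.9 CPM in mock and 1733 in AAV-sgBaat. Cycling pDC barcodes had 1008 CPM in mock (5 barcodes) and 1697 in AAV-sgBaat (16 barcodes), so the low cycling value was seen in AAV-sgSCR only. The part of cycling in the AAV-sgSCR level was not tested. Alb, Apoa1 and Apoa2, hepatocyte transcripts, stood among the leading genes of the AAV-sgSCR pDC gate. Without its 3 barcodes of at least 10 hepatocyte UMIs the Cox6a2 level of that gate was 803 CPM. The paralog Cox6a1 was present in pDC too, at 225, 237 and 288 CPM in mock, AAV-sgSCR and AAV-sgBaat, so pDC held transcripts of both isoforms.

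**Figure D5:**
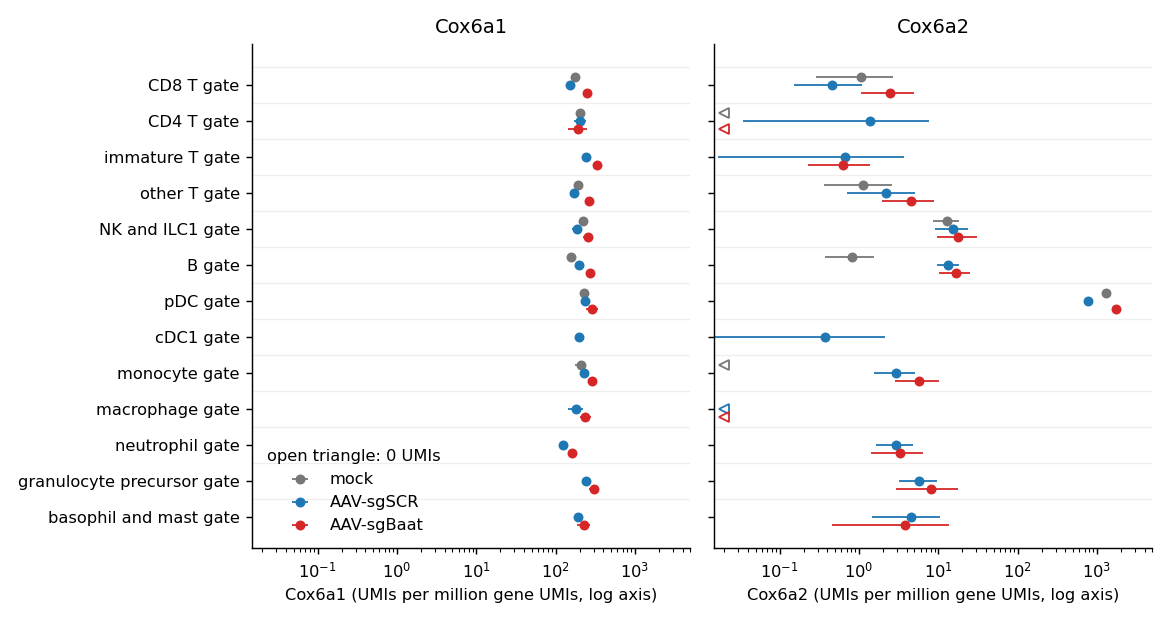
Cox6a1 and Cox6a2 in CPM on a log axis (horizontal) by gate (vertical) and library, with exact 95% intervals; open triangles mark 0 UMIs. Cox6a1 lies between 124 and 331 in the gates, while Cox6a2 stands at 773 to 1722 in pDC and far lower in each other gate.

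Other members with wide lineage ranges included 3 complex I assembly factors. The highest over the lowest gate mean, each over the libraries that held the gate, was 62.5-fold for Ndufaf4 (68.4 CPM in immature T cells, 1.10 in neutrophils). It was 23.6-fold for Ndufaf2 and 15.8-fold for Ndufaf6. The low ends rest on few UMIs in AAV-sgSCR and AAV-sgBaat neutrophils, so these folds are imprecise. They were 5 and 3 for Ndufaf4, 13 and 10 for Ndufaf2, and 4 and 6 for Ndufaf6. The testis isoform Cox6b2 ranged 20.3-fold, from 2.30 CPM in CD4 T cells to 46.5 in basophils and mast cells. Its CD4 T value rests on 2, 2 and 1 UMIs in mock, AAV-sgSCR and AAV-sgBaat. Ndufab1, Atp5g1 and Ndufa12 ranged 11.3-fold, 9.38-fold and 8.80-fold. The median range over the 86 members was 3.21-fold.

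Genes around the chain were read from lists of other mitochondrial functions. Of 20 regulators of mitochondrial transcription and biogenesis, 19 had at least 20 UMIs in CD8 T cells and AAV-sgBaat was the higher AAV library for 12, with a median of 0.16; Ppargc1a, the coactivator PGC-1alpha, had 0 UMIs. The mitochondrial packaging and transcription factor Tfam was at 0.00. Lowest were the mitochondrial RNA polymerase Polrmt at -0.23 and its elongation factor Tefm at -0.22. Polrmt rests on 47 UMIs in AAV-sgSCR and 12 in AAV-sgBaat, and its interval of -1.28 to 0.71 spanned 0. Highest were the coactivator Pprc1 at 0.92 and the receptor Esrra at 0.51. The mitochondrial ribosome had 61 of 78 higher with a median of 0.15, from Mrps27 (-0.34) and Mrpl9 (-0.31) to Mrps25 (0.66) and Mrpl47 (0.75). Protein import had 20 of 24 higher with a median of 0.30, from Tomm40l (-0.71) and Timm17b (-0.13) to Timm9 (0.63) and Timm8a1 (0.68). The list of mitochondrial stress genes had 8 of 9 higher with a median of 0.36, with the chaperone Hspd1 at 0.90 and the factor Atf5 at 0.53, and Ddit3 at 0.13 and Atf4 at -0.04.

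Among the electron carriers 5 of 7 were higher, with cytochrome c, Cycs, at 97.9 and 150 CPM in AAV-sgSCR and AAV-sgBaat (0.62), Coq7 at 0.39, Etfdh at -0.30 and Coq9 at -0.64. The citric acid cycle had 12 of 16 higher with a median of 0.11, with Dlat at 0.51 and citrate synthase, Cs, at 0.39, and Sucla2 at -0.14 and Dld at -0.19. Assembly factors outside the members had 15 of 25 higher with a median of 0.10, from Atpaf2 (-0.35) and Sdhaf1 (-0.25) to Sco1 (0.53) and Lyrm7 (0.60). Glycolysis had 9 of 13 higher with a median of 0.09, with the hexokinase Hk2 at 1.19 and Ldha at 0.33, and Hk1 at -0.20 and Gpi1 at -0.21. Cytosolic ribosomal protein genes had 67 of 93 higher with a median of 0.06. In monocytes import had 10 of 24 higher with a median of -0.05 and the citric acid cycle 5 of 16 with -0.12. In neutrophils import had 17 of 22 with a median of 0.40, and the mitochondrial ribosome 63 of 74 with 0.42. For monocytes and neutrophils no share of all genes higher by any amount is given beside these counts.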

How the data were processed

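The values are raw UMI counts of each gene feature in each barcode, as deposited, made with Cell Ranger 6.0.1 per the file headers, on mm10 per the submitters' processing notes; kit v2 is named in the labels. Counts were used as deposited, with 0 sample columns left aside. Barcodes with at least 500 genes and 1000 gene UMIs (31653537, 62020385 and 46836145 UMIs in mock, AAV-sgSCR and AAV-sgBaat) were gated by panel UMIs: at least 2 of Cd3d, Cd3e and Cd3g for T cells, then Cd8a or Cd8b1 without Cd4 for CD8 T, and 2 to 10 UMIs of other panels for other lineages. The cycling panel needs 2 UMIs. UMIs were summed per gate and library where at least 50 barcodes passed.

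Ratios of counts carry exact 95% conditional intervals. A member is counted in a comparison with at least 20 UMIs over both libraries, a fold of 1.5 marks a large difference, and 3 counts stand for a sum of 0. The ratio code was run on simulated Poisson counts for the CD8 T comparison, for the 6230 genes with at least 200 UMIs. Of 200 genes changed by 2-fold, 100% passed 1.5-fold, and 0.216% of unchanged genes did. With the median shift of unchanged genes taken off, 95.2% of intervals held the true value. The simulation had no variation between barcodes or libraries and no genes with fewer UMIs. It checks the code and gives no error rate for the counts of members past 1.5-fold. The members, lists, panels and comparisons were chosen with earlier results of these data known. Genes named are the 13 mitochondrial transcripts, complex II, isoform pairs and the 8 of widest range between gates. Also named are the highest and lowest ratios per gate among members with at least 200 UMIs. These are 6 and 6 in CD8 T cells, 3 and 3 against mock, and 2 and 2 in other gates. Lists of other genes gave 2 and 2 each, where genes under 200 UMIs were also named. Members with a motif shown, subunits higher in every gate and the other complex III genes were picked after their values were seen. A gene that the rule names is not reported here.

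Alternatives were a limit of 10% mitochondrial UMIs, at least 2000 UMIs, removal of barcodes above the 95th percentile of depth, mixed-lineage barcodes kept, doubled panel thresholds, gates from Leiden clusters (resolution 1.5, 15 neighbours, 2000 genes, 30 components), other denominators, thinning to 1000 UMIs, a fold of 2 and a minimum of 200 UMIs. Subsets by CD90 tag (at least 100 tag UMIs), cycling panel, B precursor genes and hepatocyte UMIs were added after the data were seen. Promoter windows are RefSeq's (GRCm38.p6). Software was Python 3.11.15 with pandas 2.3.3, numpy 2.4.6, matplotlib 3.10.9, scipy 1.17.1, igraph 0.11.9 and scikit-learn 1.9.0.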

Additional observations from a re-analysis of the deposited data

Results flagged for a closer look

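The mitochondrial share of neutrophils had a log2 ratio of AAV-sgBaat over AAV-sgSCR of 0.090, opposite in sign to the 11 other gates, where the ratio was between -0.86 and -0.33. The difference between the neutrophil gate and the others was not tested, since each group is 1 library.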

How the results depend on the processing

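Values are log2 ratios of AAV-sgBaat over AAV-sgSCR unless a count is named, and the mitochondrial shares of CD8 T, B and monocyte gates and the nuclear CPM of CD8 T cells kept their direction under each alternative run. The mitochondrial share of CD8 T cells (-0.59) was -0.66 with at most 10% mitochondrial UMIs, -0.66 with at least 2000 UMIs, -0.49 with mixed-lineage barcodes, -0.52 with doubled thresholds, -0.75 with clusters, -0.62 with mitochondrial UMIs out of the total, -0.63 without cycling barcodes, -0.78 in CD90.2 and -0.40 in CD90.1 barcodes, and -0.49 as a thinned mean. Its nuclear CPM (0.15) was 0.14 without the deepest barcodes, 0.19 with mixed-lineage barcodes, 0.23 with doubled thresholds, 0.090 with clusters, 0.13 with mitochondrial UMIs out of the total, 0.11 without cycling barcodes, 0.22 in CD90.1 barcodes and 0.17 thinned. The mitochondrial share of B cells (-0.73) was -0.76 with at most 10%, -0.77 with at least 2000 UMIs, -0.67 without the deepest barcodes, -0.57 with mixed-lineage barcodes, -0.79 with doubled thresholds, -0.76 with clusters, -0.77 with mitochondrial UMIs out of the total, -0.69 without cycling barcodes, -0.68 without precursor barcodes and -0.63 thinned. That of monocytes (-0.70) was -0.67 with at most 10%, -0.73 with at least 2000 UMIs, -0.42 with mixed-lineage barcodes, -0.59 with doubled thresholds, -0.65 with clusters, -0.72 with mitochondrial UMIs out of the total and -0.71 thinned. Of mitochondrial transcripts past 1.5-fold in CD8 T cells (6), there were 10 with at most 10%, 10 with at least 2000 UMIs, 11 with clusters, 11 in CD90.2 and 2 in CD90.1 barcodes, and 1 past 2-fold. Of nuclear members (2), there were 4 with mixed-lineage barcodes, 10 with doubled thresholds, 1 with clusters, 1 with at least 200 UMIs, 1 past 2-fold and 8 in CD90.1 barcodes. The cause of these shifts was not tested. Mitochondrial ratios of the other gates kept their sign in 85 of 88 recomputations, the 3 exceptions being neutrophils, and nuclear ratios in 100 of 109. In CD8 T cells the 13 mitochondrial transcripts kept their sign in 142 of 143 recomputations (mt-Nd6 was 0.03 in CD90.1 barcodes) and the 12 nuclear members chosen for their ratio in 130 of 132 (Ndufs3 was 0.04 in CD90.2 barcodes and Ndufs1 0.12 with doubled thresholds). The nuclear ratio of basophils and mast cells kept its sign in 4 of 10. No paired analysis was possible because each group is 1 library. Leaving out a replicate could not be done for the same reason. Depth limits the rare members most: mt-Nd6, Cox6b2, Ndufaf7, Cox6a2 outside pDC, and Ndufaf2, Ndufaf4 and Ndufaf6 in neutrophils rest on few UMIs.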

Other observations

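Across barcodes of a gate, the mitochondrial and the nuclear share had Spearman correlations of -0.44 in mock, -0.14 in AAV-sgSCR and -0.06 in AAV-sgBaat CD8 T cells, and of 0.20 and 0.43 in AAV-sgSCR and AAV-sgBaat neutrophils. These describe barcodes of 1 library each, which share its preparation and of which both shares have the same total. Mixed-lineage barcodes, which the gates leave out, held 4.08%, 4.06% and 3.28% mitochondrial UMIs and 16922, 20147 and 26822 CPM of nuclear members in mock, AAV-sgSCR and AAV-sgBaat. Of all Cox6a2 UMIs of a library, 82.3% in mock, 73.0% in AAV-sgSCR and 64.8% in AAV-sgBaat were in the pDC gate, and mixed-lineage barcodes that passed the pDC panel held another 379, 309 and 256 UMIs.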
